A study of Mus musculus with 12 samples.

Results

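Hyaluronan is made, held and taken apart by a small group of proteins, and the RNA of 8 of them is described here: the synthases *Has1*, *Has2* and *Has3*, the hyaluronidases *Hyal1* and *Hyal2*, the depolymerizing protein gene *Cemip*, the receptor gene *Cd44* and *Tnfaip6*, which encodes the hyaluronan-binding protein TSG-6. They were taken by gene symbol from the deposited table of 46731 genes. RNA was sequenced from ATDC5 cells, a chondrogenic line derived from a mouse teratocarcinoma. Lentivirus had placed 1 of 2 hairpins in the genome, a control (shRNA-NC, labelled wild type) or a hairpin against *Ddx5* (shRNA-*Ddx5*, a knockdown although its columns are named as a knockout), and the cells were kept as puromycin-selected stable lines. Each line was collected after 6 h in medium or with a pair of cytokines, TNF-α at 25 ng/ml and IL-1β at 5 ng/ml, with 3 biologically independent replicates in each of the 4 groups. The methods name 1 construct against *Ddx5*, so that the hairpin and the selected line cannot be told apart from the loss of *Ddx5*.

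Hyaluronan is a long, unsulfated glycosaminoglycan of alternating glucuronic acid and N-acetylglucosamine. The 3 synthases sit in the plasma membrane, draw on UDP-sugars in the cytosol and push the growing chain out of the cell. In cartilage the chain carries aggrecan aggregates and is tethered to chondrocytes by CD44. HYAL2 cuts long chains near the cell surface, HYAL1 digests the products in lysosomes, and CEMIP breaks down hyaluronan in fibroblasts and chondrocytes. TSG-6 transfers heavy chains of inter-α-inhibitor onto hyaluronan, and its gene is a known target of TNF-α and IL-1 in connective tissue cells.

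Libraries held 14119199 to 19276520 fragments assigned to genes, and log2 values correlated at 0.973 to 0.993 within groups and at 0.897 to 0.961 between groups. The target of the hairpin was lower in every shRNA-*Ddx5* library: *Ddx5* had 319 ± 22.3 FPKM (fragments scaled by gene length and library size, mean ± SD, n = 3) in shRNA-NC and 103 ± 13.9 in shRNA-*Ddx5* cells in medium, and 310 ± 14.9 and 99.5 ± 5.27 with cytokines. Of the 9 chondrocyte markers checked, 2 to 4 reached 1 FPKM in every library of a group, and *Acan* and *Matn1* stayed under 0.1 FPKM on average in all 4 groups. The summed level of the chondrocyte markers was 40.8 to 47.2 FPKM in shRNA-NC and 27.1 to 31.1 in shRNA-*Ddx5* cells in medium, and 14.5 to 20.9 and 8.49 to 9.31 with cytokines. Single markers did not all follow that sum, since *Col2a1* had 12.4 ± 3.05 and 0.899 ± 0.0511 FPKM in shRNA-NC and shRNA-*Ddx5* cells in medium, while *Sox6*, which was under the filter and not tested, had 0.171 ± 0.00848 and 0.914 ± 0.0851 FPKM. The part of these markers in the results below was not tested. The 5 macrophage markers summed to between 1.21 and 2.15 FPKM in all groups, with *Ptprc*, *Adgre1* and *Itgam* under 0.1 FPKM. *Cd68* averaged 1.42 and 1.10 FPKM in shRNA-NC and shRNA-*Ddx5* cells in medium, and 1.76 and 1.40 with cytokines. *Csf1r*, under the filter and not tested, averaged 0.0887 and 0.381 FPKM in these lines in medium, and 0.0327 and 0.267 with cytokines. The 4 endothelial and the 4 epithelial markers summed to at most 0.145 and 0.116 FPKM. Replicate 2 of shRNA-NC with cytokines stood somewhat apart. Among 3918 genes higher in every shRNA-*Ddx5* library with cytokines, it was the highest shRNA-NC library for 50.5%, against 25.3% and 24.2% for the other replicates.

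The 8 genes covered a wide range of levels. *Cd44* was the most abundant per length in every group, *Hyal2* ranged from 11.4 to 23.3 FPKM, *Tnfaip6* and *Cemip* lay between 1.32 and 24.2 FPKM over the 12 libraries, and *Has1*, *Has2*, *Has3* and *Hyal1* stayed under 1 FPKM everywhere. The genes with at least 1 FPKM in at least 3 libraries (12368 genes) entered 1 limma fit of log2(FPKM + 1), and a gene was called at a Benjamini-Hochberg adjusted p under 0.05. Differences on this scale are smaller than the ratio of FPKM for genes at low levels. This held 4 of the 8 genes. The knockdown in medium raised 2 of them (*Tnfaip6* and *Cemip*), where 47% of all tested genes were called and 25.3% were called higher. With cytokines the knockdown raised *Tnfaip6* and lowered *Cd44*, where 45.6% of all tested genes were called, 23.5% higher and 22.1% lower. The cytokines raised *Cd44*, *Cemip* and *Hyal2* in shRNA-NC cells (33.8% of all tested genes were called, 18.6% higher) and raised *Cd44* and *Tnfaip6* in shRNA-*Ddx5* cells (27% called, 13.5% higher). The 4 genes under the filter were compared by the exact two-sided permutation test, which cannot go below p = 0.1 with 3 libraries against 3, and in fits without this filter, given beside them. In a culture, fewer cells that express a gene and less RNA per cell cannot be told apart.

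**Figure D1:**
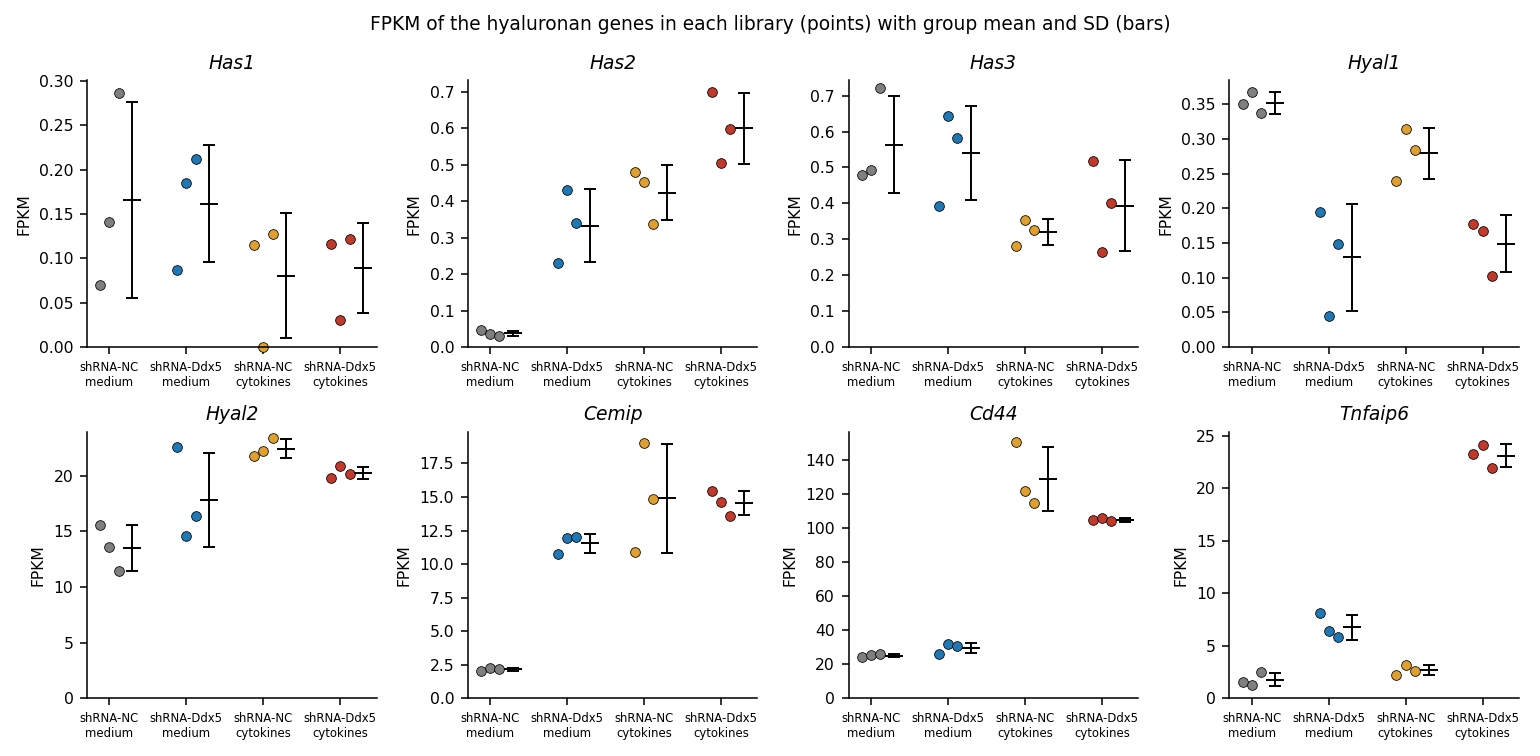
FPKM of the 8 hyaluronan genes (vertical axes, linear from 0 and different for each gene) in the 3 libraries of each group, with the group mean and SD as a bar to the right of the points. *Has2* rose from 0.0373 FPKM in shRNA-NC cells in medium to 0.600 FPKM in shRNA-*Ddx5* cells with cytokines, *Tnfaip6* was at 23.1 FPKM in the latter group only, and *Cd44* was at 104 FPKM or more in all 6 libraries with cytokines.

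The synthases were the lowest of the group, and *Has2* was the only one of the 3 whose level parted the groups in every comparison. *Has2* (gene 15117, GRCm39 chr15:56529023-56557942, minus strand) encodes the synthase of long chains that most connective tissue cells use. It had 0.0457, 0.0348 and 0.0314 FPKM in shRNA-NC cells in medium, which rest on only 4, 3 and 2 fragments. In shRNA-*Ddx5* cells in medium it had 0.229, 0.431 and 0.340 FPKM from 16, 33 and 26 fragments. All 3 knockdown libraries were higher, as were 28.7% of the tested genes, and the ratio of the summed fragments per library size was 8.88 (exact 95% interval for counting error only, 4.43 to 20.2). With cytokines *Has2* was at 0.480, 0.453 and 0.339 FPKM in shRNA-NC cells and at 0.698, 0.504 and 0.599 FPKM in shRNA-*Ddx5* cells. These groups did not overlap either, and 31.7% of the tested genes were higher in every knockdown library. The ratio was lower here, at 1.43 (1.08 to 1.88). The exact permutation test gave p = 0.1 here as in the other comparisons of *Has2*, the lowest it can give.

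Since *Has2* passed no filter on FPKM, it was also fitted with limma-voom on fragments over the 14967 genes with at least 10 fragments in at least 3 libraries, a test chosen after the values were seen. *Has2* reached 10 fragments only outside shRNA-NC in medium, so this filter favoured a lower level in that group. The voom values below for the knockdown in medium, for the cytokines in shRNA-NC cells and for the difference between the media use that group. They are no test of a lower level there. In the voom fit *Has2* rose by 2.92 (log2, SE 0.28, adjusted p = 5.7e-06) with the knockdown in medium, where 44.6% of all genes were called. The cytokines raised it by 3.28 (SE 0.28, adjusted p = 1.8e-06) in shRNA-NC cells, where 31.7% were called, and by 0.86 (SE 0.28, adjusted p = 0.0420) in shRNA-*Ddx5* cells, where 24.4% were called. The knockdown with cytokines gave 0.51 (SE 0.28, adjusted p = 0.166, 42.6% called). The knockdown differences in the 2 media differed by -2.42 (SE 0.40, adjusted p = 0.00375), where 5.3% of all genes were called. The limma fit of log2(FPKM + 1) with no filter also called *Has2* for the knockdown in medium (adjusted p = 0.00302), for the cytokines in shRNA-NC cells (0.00130) and in shRNA-*Ddx5* cells (0.0247), where it called 23.1%, 14.7% and 13.1% of 27209 genes, but not for the difference between the media (adjusted p = 0.359, 3.67% called). With a pseudocount of 0.1 and no filter the cytokines in shRNA-*Ddx5* cells gave 0.71 (adjusted p = 0.0851), which did not pass. In order of mean level, shRNA-NC in medium was lowest (0.0373 ± 0.00750 FPKM), followed by shRNA-*Ddx5* in medium (0.333 ± 0.101), shRNA-NC with cytokines (0.424 ± 0.0750) and shRNA-*Ddx5* with cytokines (0.600 ± 0.0973). The middle pair of that order overlapped. The antisense RNA gene *Has2os*, which overlaps *Has2*, had 0 to 6 fragments per library.

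*Has3* (gene 15118, chr8:107596874-107609534, plus strand), a synthase of shorter chains, was the most abundant of the 3 in medium. It had 0.478, 0.493 and 0.720 FPKM in shRNA-NC and 0.393, 0.644 and 0.582 FPKM in shRNA-*Ddx5* cells in medium, and these groups overlapped. With cytokines the values were 0.280, 0.353 and 0.326 FPKM in shRNA-NC and 0.518, 0.264 and 0.400 FPKM in shRNA-*Ddx5* cells. All 3 shRNA-NC libraries with cytokines lay below those in medium, as did 22% of the tested genes. The voom fit gave -0.77 (log2, SE 0.27, adjusted p = 0.0448) for that comparison, and the limma fit with no filter gave an adjusted p of 0.113. None of the other comparisons of *Has3* passed in either fit, with adjusted p from 0.237 to 0.958. The antisense locus LOC118567607 overlaps *Has3* and had 10 to 50 fragments per library, against 26 to 72 for *Has3*.

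*Has1* (gene 15116, chr17:18063588-18075450, minus strand) was near the limit of detection, with 0 to 9 fragments in each library. Its mean level was 0.166 ± 0.110 and 0.162 ± 0.0658 FPKM in shRNA-NC and shRNA-*Ddx5* cells in medium, and 0.0806 ± 0.0701 and 0.0890 ± 0.0512 FPKM with cytokines. The groups overlapped in all 4 comparisons, with exact permutation p from 0.3 to 1. The overlapping antisense gene Gm36907 had 2 to 38 fragments per library. A difference in *Has1* was not detectable at this depth.

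Put together, the summed level of the 3 synthases overlapped between the groups in all 4 comparisons (0.767 ± 0.238, 1.03 ± 0.289, 0.824 ± 0.0442 and 1.08 ± 0.269 FPKM for the lines shRNA-NC and shRNA-*Ddx5*, first in medium and then with cytokines, exact permutation p from 0.2 to 0.8, n = 3). What each synthase contributed was not the same. *Has2* gave 5.31% ± 2.34 of the sum in shRNA-NC and 32.2% ± 2.11 in shRNA-*Ddx5* cells in medium, and 51.2% ± 7.40 and 56.3% ± 5.91 with cytokines. The first of these groups lay below each of the others in every library (exact permutation p = 0.1 for the knockdown in medium and for the cytokines in shRNA-NC cells), while the groups with cytokines overlapped (p = 0.6). The share in that first group rests on 2 to 4 *Has2* fragments per library. These shares use the *Has2* values given above and are no further evidence. *Has3* gave 74.5% ± 5.64 of the sum in shRNA-NC cells in medium and 35.9% ± 2.90 in shRNA-*Ddx5* cells with cytokines.

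**Figure D2:**
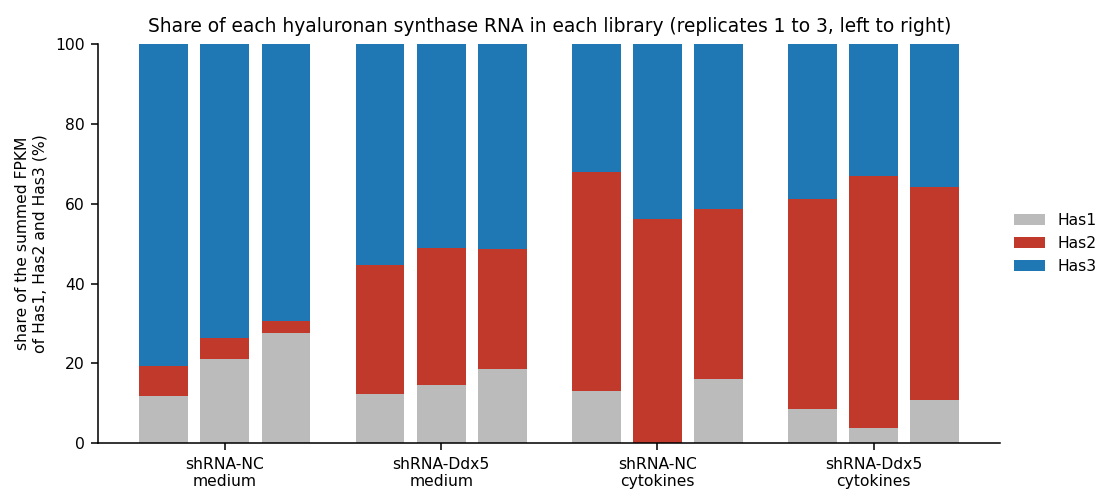
Share (%) of the summed FPKM of the 3 hyaluronan synthases taken by *Has1*, *Has2* and *Has3* (colours) in each of the 12 libraries, in 4 groups of 3 replicates. The mean share of *Has2* was 5.31% in shRNA-NC cells in medium, from 2 to 4 fragments per library. It was 32.2% in shRNA-*Ddx5* cells in medium, and 51.2% and 56.3% in shRNA-NC and shRNA-*Ddx5* cells with cytokines.

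Among the genes of breakdown, *Cemip* rose with the knockdown in medium and with cytokines in shRNA-NC cells, and *Hyal2* rose with cytokines in shRNA-NC cells. *Hyal1*, which had few fragments, was lower with the knockdown in medium, while the fits parted on the knockdown with cytokines. *Hyal1* (gene 15586, chr9:107454149-107458898, plus strand), the lysosomal hyaluronidase, had 0.350, 0.368 and 0.338 FPKM in shRNA-NC and 0.195, 0.0444 and 0.148 FPKM in shRNA-*Ddx5* cells in medium. All 3 knockdown libraries were lower, as were 24.8% of the tested genes, and the ratio of fragments (25 against 74) was 0.360 (0.219 to 0.573). *Hyal1* fell by 1.63 on the log2 scale (SE 0.42, adjusted p = 0.00734) in the voom fit, and the limma fit with no filter also called it (adjusted p = 0.00361, 23.1% of its genes called). With cytokines it had 0.240, 0.314 and 0.284 FPKM in shRNA-NC and 0.178, 0.168 and 0.102 FPKM in shRNA-*Ddx5* cells. These groups did not overlap, where 29.9% of the tested genes were lower in every knockdown library, and the fits parted: adjusted p = 0.112 with voom and 0.0486 with limma and no filter, which called 21.8% of its genes. With a pseudocount of 0.1 and no filter the adjusted p was 0.1545. *Hyal1* shares its strand and part of its span with *Naa80* (108 to 292 fragments per library) and *Hyal3* (12 to 30), so its 3 to 28 fragments are uncertain.

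*Hyal2* (gene 15587, chr9:107445085-107449977, plus strand), the hyaluronidase anchored at the cell surface, was second to *Cd44* in level per length in 3 of the 4 groups, and *Tnfaip6* was above it in shRNA-*Ddx5* cells with cytokines. It had 15.6, 13.5 and 11.4 FPKM in shRNA-NC and 22.6, 14.5 and 16.4 FPKM in shRNA-*Ddx5* cells in medium, and the groups overlapped. With cytokines the shRNA-NC libraries had 21.7, 22.2 and 23.3 FPKM, all above those in medium, as were 23.7% of the tested genes. The shRNA-*Ddx5* libraries with cytokines had 19.7, 20.8 and 20.1 FPKM. *Hyal2* rose by 0.70 (log2, SE 0.14, adjusted p = 0.00316) with cytokines in shRNA-NC cells. The knockdown in medium gave 0.36 (95% interval 0.05 to 0.67, adjusted p = 0.0557), and this passed without replicate 1 of shRNA-NC in medium (0.46, adjusted p = 0.0306) or without replicate 2 of shRNA-*Ddx5* in medium (0.49, adjusted p = 0.0163). The knockdown with cytokines gave -0.14 (-0.45 to 0.17, adjusted p = 0.445). The cytokines in shRNA-*Ddx5* cells gave 0.20 (-0.12 to 0.51, adjusted p = 0.340), and 0.37 (adjusted p = 0.0306) without replicate 1 of shRNA-*Ddx5* in medium, the library with 22.6 FPKM.

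*Cemip* (gene 80982, chr7:83582065-83735893, minus strand) was low in 1 group and high in the other 3. It had 2.05, 2.28 and 2.22 FPKM in shRNA-NC cells in medium and 10.7, 11.9 and 11.99 FPKM in shRNA-*Ddx5* cells in medium. The knockdown in medium raised it by 1.98 (log2, SE 0.15, adjusted p = 2.9e-06), a 5.3-fold ratio of the mean FPKM. With cytokines it had 10.9, 19.0 and 14.8 FPKM in shRNA-NC cells, where replicate 2 was highest, and 15.4, 14.6 and 13.6 FPKM in shRNA-*Ddx5* cells. The cytokines raised *Cemip* by 2.29 (SE 0.15, adjusted p = 7.3e-07) in shRNA-NC cells, a 6.8-fold ratio. In shRNA-*Ddx5* cells they gave 0.31 (-0.02 to 0.64, adjusted p = 0.153) with all 3 libraries higher, as were 23.3% of the tested genes, and this comparison passed without replicate 1 of shRNA-NC with cytokines (0.31, adjusted p = 0.0329) and with only the 6 libraries of the comparison in the fit (adjusted p = 0.0243). The knockdown with cytokines gave -0.00317 (SE 0.15, 95% interval -0.33 to 0.32, adjusted p = 0.988), and 0.18 without replicate 2 of shRNA-NC with cytokines. In order of mean level, shRNA-NC in medium (2.18 ± 0.122 FPKM) lay far below shRNA-*Ddx5* in medium (11.5 ± 0.718), shRNA-*Ddx5* with cytokines (14.5 ± 0.908) and shRNA-NC with cytokines (14.9 ± 4.07). The last group overlapped both groups of shRNA-*Ddx5*. The overlapping antisense gene Gm30440 had 0 to 5 fragments per library.

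The start of *Cemip* is shown because the gene rose both with the knockdown in medium and with cytokines in shRNA-NC cells. Of the 8 genes, 6 had a promoter window in RefSeq (GRCm38.p6), and each window of 250 bases before the start matched GRCm39 once. All 250 bases of the *Hyal2* window and 4 bases of the *Cd44* window lie inside the deposited models of these genes. The *Hyal2* window is therefore not upstream of the gene as counted. These windows were searched on both strands for an NF-κB motif (10 letters, 1 of them free, in 0.356% of 32851 RefSeq windows of the same length), an AP-1 motif (TGANTCA, in 6.75%) and a TATA box (TATAAA, in 12.4%). The NF-κB motif was searched in this 1 form only, with all but 1 letter fixed, and none of the 6 windows held it. Whether a window holds an NF-κB site of another form was not tested. *Cemip* held the TATA box and *Tnfaip6* the AP-1 motif. The TATA box of *Cemip* lies 29 to 24 bases before the RefSeq start, and the deposited gene model of *Cemip* starts further upstream, since 180 of the 250 bases lie inside it. The 30 bases around it (GRCm39 chr7:83735724-83735753, minus strand) read as follows, with the motif in capitals.
Cemip: cggaaggcgacTATAAAaagcgtcggctcg

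*Cd44* (gene 12505, chr2:102641486-102732014, minus strand), the main receptor for hyaluronan on most cells, was the most abundant of the 8 genes in every group and rose with cytokines in both lines. It had 24.1, 25.5 and 25.9 FPKM in shRNA-NC and 26.4, 31.7 and 30.7 FPKM in shRNA-*Ddx5* cells in medium. With cytokines it had 150, 122 and 115 FPKM in shRNA-NC and 105, 106 and 104 FPKM in shRNA-*Ddx5* cells. All libraries with cytokines were above all libraries in medium. Within a line, 23.7% of the tested genes were higher in every library with cytokines in shRNA-NC and 23.3% in shRNA-*Ddx5* cells. In each condition the 2 lines did not overlap. Of the tested genes, 28.7% were higher in every knockdown library in medium and 29.9% were lower with cytokines. The cytokines raised *Cd44* by 2.30 (log2, SE 0.10, adjusted p = 3.6e-08) in shRNA-NC cells, a 5.13-fold ratio of the mean FPKM, and by 1.80 (SE 0.10, adjusted p = 1.8e-07) in shRNA-*Ddx5* cells, a 3.55-fold ratio. The difference between these effects was -0.51 (SE 0.15, adjusted p = 0.0570). It passed with quantile normalization (-0.58, adjusted p = 0.0262), without replicate 1 of shRNA-*Ddx5* in medium (-0.59, adjusted p = 0.0324) and without replicate 3 of shRNA-NC with cytokines (-0.59, adjusted p = 0.0424).

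Against those changes the knockdown moved *Cd44* little. In medium the difference was 0.22 (95% interval -0.01 to 0.45, adjusted p = 0.0996), which passed without replicate 1 of shRNA-*Ddx5* in medium (0.30, adjusted p = 0.0424) or replicate 1 of shRNA-NC with cytokines (0.22, adjusted p = 0.0320). With cytokines *Cd44* fell by 0.29 on the log2 scale (SE 0.10, adjusted p = 0.0412), and this call was not stable. It was lost without replicate 1 of shRNA-NC with cytokines, the highest library, where the difference was -0.17 (adjusted p = 0.134). It was also lost without replicates 1, 2 or 3 of shRNA-*Ddx5* with cytokines (adjusted p = 0.0954, 0.0866 and 0.0967), replicates 1 or 2 of shRNA-NC in medium (0.0506 and 0.0561) or replicate 3 of shRNA-*Ddx5* in medium (0.0552). With the replicate number as a block the adjusted p was 0.0729. The table gives 1 value per gene and does not separate the splice forms for which *Cd44* is known, and the small RNA gene Gm23731 inside it had 0 to 6 fragments per library.

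*Tnfaip6* (gene 21930, chr2:51928125-51946693, plus strand) was raised by the knockdown in both media, and most of all where knockdown and cytokines came together. It had 1.55, 1.32 and 2.49 FPKM in shRNA-NC and 8.09, 6.40 and 5.82 FPKM in shRNA-*Ddx5* cells in medium. The knockdown in medium raised it by 1.49 (log2, SE 0.16, adjusted p = 2.9e-05), a 3.79-fold ratio of the mean FPKM. With cytokines it had 2.24, 3.20 and 2.63 FPKM in shRNA-NC and 23.3, 24.2 and 21.9 FPKM in shRNA-*Ddx5* cells. The knockdown with cytokines raised it by 2.72 (SE 0.16, adjusted p = 6.3e-07), an 8.60-fold ratio. The lines did not overlap in either medium. Of the tested genes, 28.7% in medium and 31.7% with cytokines were higher in every knockdown library.

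The cytokines raised *Tnfaip6* by 1.64 (SE 0.16, adjusted p = 1.4e-05) in shRNA-*Ddx5* cells, a 3.42-fold ratio. In shRNA-NC cells they gave 0.42 (95% interval 0.07 to 0.77, adjusted p = 0.0619), and the groups overlapped through replicate 3 in medium, at 2.49 FPKM. That comparison passed without this library (0.59, adjusted p = 0.00887), without replicate 1 of shRNA-*Ddx5* in medium (0.42, adjusted p = 0.0471) or replicate 1 of shRNA-NC with cytokines (0.51, adjusted p = 0.0499), with a pseudocount of 0.1 (0.60, adjusted p = 0.0478) and with voom (0.65, adjusted p = 0.0356). The 4 groups in order of mean level were shRNA-NC in medium (1.79 ± 0.622 FPKM), shRNA-NC with cytokines (2.69 ± 0.481), shRNA-*Ddx5* in medium (6.77 ± 1.18) and shRNA-*Ddx5* with cytokines (23.1 ± 1.12), and only the first pair overlapped.

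The promoter of *Tnfaip6* is printed because this gene was raised in both knockdown comparisons. Its 250 bases before the start (GRCm39 chr2:51927875-51928124, plus strand, from RefSeq) lie outside the deposited gene model. The AP-1 motif, in capitals, reads TGAGTCA and lies 142 to 136 bases before the start.
Tnfaip6: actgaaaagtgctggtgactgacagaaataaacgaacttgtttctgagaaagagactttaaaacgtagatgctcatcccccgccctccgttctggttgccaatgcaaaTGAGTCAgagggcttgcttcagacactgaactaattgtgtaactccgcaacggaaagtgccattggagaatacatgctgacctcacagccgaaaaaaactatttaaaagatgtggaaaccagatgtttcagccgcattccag

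*Tnfaip6* and *Cemip*, the 2 genes that rose with the knockdown in medium, differed from each other in what the knockdown did with cytokines. For *Tnfaip6* the knockdown effect with cytokines exceeded that in medium by 1.23 (log2, SE 0.22, adjusted p = 0.00697), where 8.21% of all tested genes were called and 3.46% were called higher. This was not past the threshold with voom (1.13, adjusted p = 0.0515). For *Cemip* the effect with cytokines was 1.98 lower than in medium (SE 0.21, adjusted p = 3.8e-04), where 4.75% of all tested genes were called lower. *Hyal2* gave -0.50 (95% interval -0.94 to -0.06, adjusted p = 0.156). The comparisons of the 2 lines in medium and of the 2 shRNA-NC groups share the shRNA-NC libraries in medium, which were the lowest for *Cemip* and *Has2*.

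**Figure D3:**
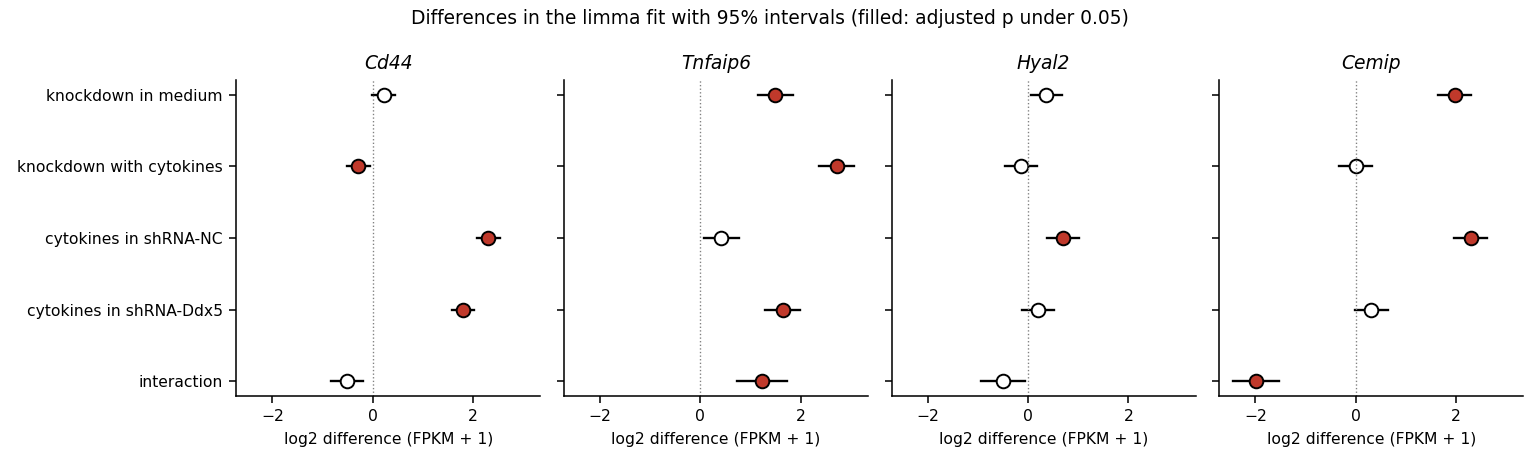
Log2 differences (horizontal axes, log2 of FPKM + 1) of the 4 tested genes in the 4 comparisons and for the interaction, the knockdown effect with cytokines minus that in medium. Points are limma estimates from 12 libraries, lines their 95% intervals, and filled points passed an adjusted p of 0.05. *Cemip* had 1.98 for the knockdown in medium and -0.00317 with cytokines, and *Tnfaip6* 1.49 and 2.72.

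Beyond the 8 genes, 43 others of hyaluronan metabolism were listed by function, and 21 of them passed the filter. *Ptx3*, *Gfpt2* and *Vcan* passed it only through groups in which they were high, so they are left out of the counts that follow, which are over the 18 genes with at least 1 FPKM in all 12 libraries. The knockdown in medium raised 7 and lowered 3 of these 18, and 47.3% of the 10019 genes of the table with that level were called (median log2 difference 0.22, against 0.04 for those genes). The knockdown with cytokines raised 9 and lowered 2, where 45.6% were called (median 0.35, against 0.01). The cytokines in shRNA-NC cells raised 5 and lowered 5, where 33.8% were called (median -0.09, against 0.04). In shRNA-*Ddx5* cells they raised 3 and lowered 4, where 26% were called (median -0.04, against 0.00). The genes that did not pass included *Acan*, the link protein genes *Hapln1* to *Hapln4*, the heavy chain genes *Itih1* to *Itih5*, *Lyve1*, *Stab1* and *Stab2*.

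Of the 6 genes of precursor sugars among them, 3 rose and 0 fell with the knockdown in medium and 4 rose and 0 fell with cytokines. Among all genes of that level 47.3% and 45.6% were called in either direction, and 25.3% and 23.5% of all tested genes were called higher. *Gfpt2*, given below, is not among these 6. *Ugdh*, whose enzyme makes UDP-glucuronic acid, had 48.2, 50.4 and 59.4 FPKM in shRNA-NC and 91.9, 95.5 and 103 FPKM in shRNA-*Ddx5* cells in medium. With cytokines it had 37.6, 43.2 and 37.5 FPKM in shRNA-NC and 99.8, 102 and 101 FPKM in shRNA-*Ddx5* cells. The lines did not overlap in either medium, where 28.7% and, with cytokines, 31.7% of the tested genes were higher in every knockdown library. *Ugdh* rose by 0.87 (SE 0.09, adjusted p = 2.7e-05) and 1.34 (SE 0.09, adjusted p = 1.5e-06) with the knockdown in medium and with cytokines. *Gfpt2*, which encodes an entry enzyme of the hexosamine pathway, had 1.18 ± 0.160 and 0.119 ± 0.102 FPKM in shRNA-NC and shRNA-*Ddx5* cells in medium and 0.889 ± 0.152 and 0.281 ± 0.162 FPKM with cytokines. It reached 1 FPKM in shRNA-NC libraries only, so that a lower level with the knockdown was given by the filter. Its paralog *Gfpt1* fell with cytokines in both lines, by 0.59 (adjusted p = 0.00111) and 0.35 (adjusted p = 0.0241). *Gnpnat1*, of the same pathway, rose by 0.61 (adjusted p = 0.00468) with cytokines in shRNA-NC cells.

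Among the further hyaluronan-degrading and lysosomal enzymes, *Cemip2* and *Gusb* rose with the knockdown. *Cemip2*, a membrane-bound relative of *Cemip*, had 6.64 ± 0.0648 and 16.9 ± 0.385 FPKM in shRNA-NC and shRNA-*Ddx5* cells in medium and 10.3 ± 1.49 and 19.5 ± 0.747 FPKM with cytokines. It rose by 1.23 (SE 0.09, adjusted p = 2.3e-06) with the knockdown in medium and by 0.86 (adjusted p = 2.1e-05) with cytokines. *Gusb*, the lysosomal β-glucuronidase, rose by 1.11 (adjusted p = 1.8e-06) in medium and 0.81 (adjusted p = 1.3e-05) with cytokines.

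Of the 4 tested receptors, 1 rose and 2 fell with cytokines in shRNA-NC cells (33.8% of all genes of that level were called) and 1 rose in shRNA-*Ddx5* cells (26%). *Ptx3* encodes a pentraxin that binds TSG-6 and heavy chains in the hyaluronan matrix. It had 0.151, 0.103 and 0 FPKM in shRNA-NC and 0.127, 0.0864 and 0.0866 FPKM in shRNA-*Ddx5* cells in medium, at most 6 fragments per library. With cytokines it had 0.0623, 1.00 and 0.111 FPKM in shRNA-NC cells, the second from 36 fragments, and 10.005, 11.5 and 11.3 FPKM in shRNA-*Ddx5* cells. It passed the filter only through the last group, so that a difference from the other groups was given by the choice. The fit is no test of that difference. *Tlr2*, an innate immune receptor also linked to hyaluronan fragments, rose by 2.02 (SE 0.14, adjusted p = 9.97e-07) with cytokines in shRNA-NC and 3.04 (SE 0.14, adjusted p = 2.6e-08) in shRNA-*Ddx5* cells. The knockdown effects on *Tlr2* were 0.01 (adjusted p = 0.971) in medium and 1.02 (adjusted p = 1.3e-04) with cytokines, and their difference was 1.01 (adjusted p = 0.00871). *Tlr4* fell by 0.60 (adjusted p = 0.00840) with cytokines in shRNA-NC cells, and its knockdown effects differed by 0.78 (adjusted p = 0.0405). *Vcan*, encoding the proteoglycan versican, had 0.498 ± 0.0894 and 0.655 ± 0.208 FPKM in shRNA-NC and shRNA-*Ddx5* cells in medium and 1.25 ± 0.213 and 1.30 ± 0.137 FPKM with cytokines. It reached 1 FPKM only with cytokines, so that this direction too was given by the filter.

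*Habp4*, an intracellular RNA-binding protein gene named for hyaluronan binding, rose by 1.06 (SE 0.06, adjusted p = 6.7e-07) with the knockdown in medium and by 0.63 (SE 0.06, adjusted p = 1.9e-05) with cytokines. It fell by 0.45 (adjusted p = 3.0e-04) with cytokines in shRNA-*Ddx5* cells, and its knockdown effects differed by -0.44 (adjusted p = 0.0131). *Ezr*, whose product ezrin couples CD44 to actin, fell by 1.08 (SE 0.10, adjusted p = 1.2e-05) with the knockdown in medium, from 32.4 ± 2.77 to 14.8 ± 2.23 FPKM. With cytokines it fell by 1.04 (SE 0.10, adjusted p = 1.4e-05), from 43.0 ± 1.48 to 20.4 ± 0.953 FPKM. *Msn*, for the related moesin, and *Rdx*, for radixin, complete this set. *Msn* rose by 0.34 (log2, adjusted p = 0.0101) with the knockdown in medium, and *Rdx* gave -0.14 (adjusted p = 0.228).

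**Figure D4:**
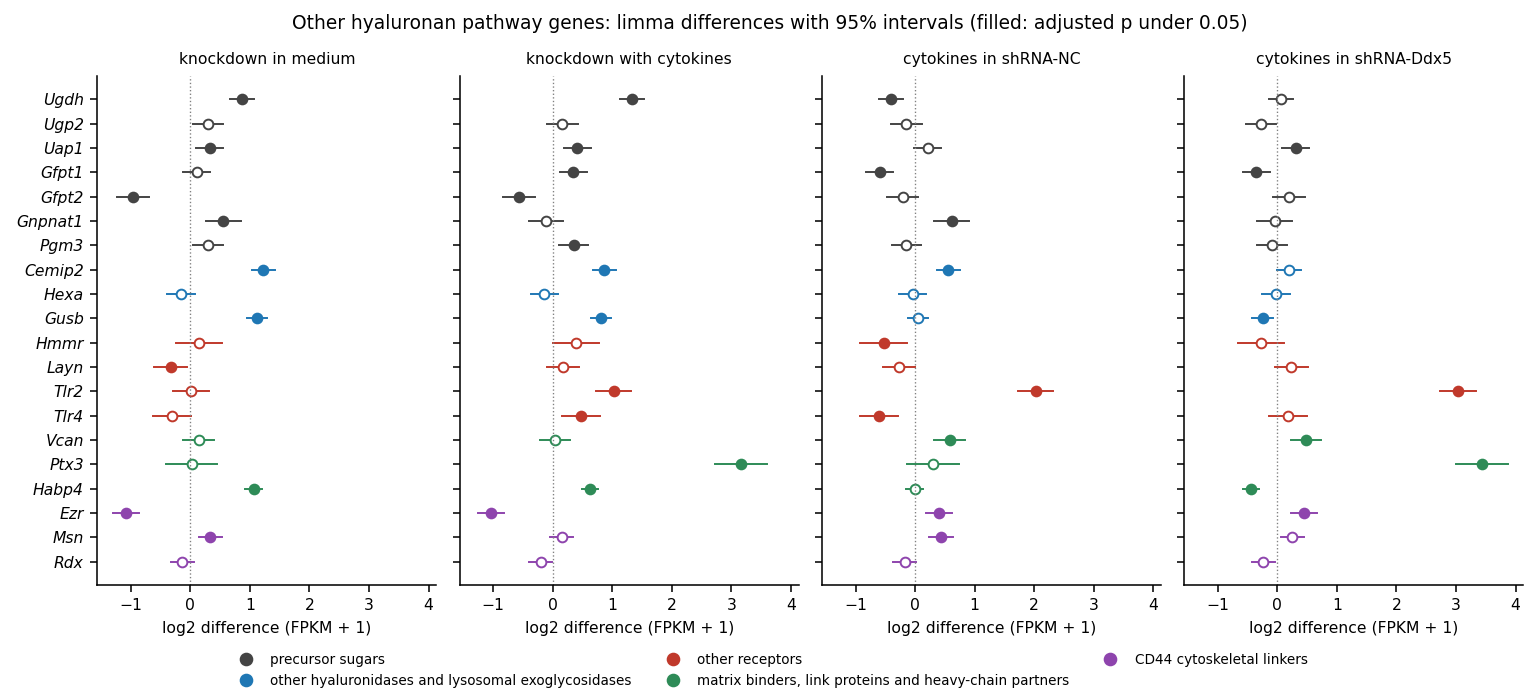
Log2 differences (horizontal axes, log2 of FPKM + 1) of tested genes of the wider list in the 4 comparisons, coloured by function, with 95% intervals from limma on 12 libraries. Filled points passed an adjusted p of 0.05. *Ugdh*, *Cemip2*, *Gusb* and *Habp4* lay above 0 and *Ezr* below 0 in both knockdown panels. *Ptx3*, *Gfpt2* and *Vcan* passed the filter only through groups in which they were high, so that the filter favoured their differences between those groups and the others.

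Genes most like each of the 4 tested members were found by Pearson's r of log2(FPKM + 1) over the 12 libraries, which share 4 groups, so that r mainly ranks genes by the pattern of the group means. For *Tnfaip6* these were *Fcrlb* (r = 0.994), *Tmem176b* (0.988) and *Surf4* (0.984). *Cd44* was most like an unnamed locus (0.993), *Noct* (0.993) and *Ptgs2* (0.992), *Cemip* like *Urb2* (0.964), *Hspb1* (0.959) and *Usp10* (0.957), and *Hyal2* like *Gatad2a* (0.982) and *Gstp1* (0.962).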

How the data were processed

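Poly(A) RNA from 1 µg of total RNA of 12 ATDC5 cultures was sequenced by the authors from both ends over 150 nt. The authors counted fragments on genes and deposited FPKM for each gene and library, in which fragments are divided by the length of the gene and by a number for the library that was 0.957 to 1.08 times the sum of fragments. The paper names featureCounts 1.6.3, and the submitters' processing notes name HISAT2 2.0.5, featureCounts 1.5.0-p3, DESeq2 1.20.0, GATK 3.7 and the build mm10, while the coordinates in the table are those of GRCm39. Strandedness was not given in the sources used here, so reads of a gene and of an antisense partner cannot be told apart. Every value column was mapped to a sample by its name.

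Multiplying FPKM by the gene's length gave whole numbers of a unit fixed for each library (100% of values within 0.01), and these numbers were used as fragments. Values were tested as log2(FPKM + 1) for genes with at least 1 FPKM in at least 3 libraries with limma 3.58.1 in R 4.3.3 (lmFit, contrasts.fit, eBayes with trend, 4 group means, no covariate), with Benjamini-Hochberg adjustment over all tested genes and a threshold of 0.05. FPKM is not a count unit, so that no count model was the main test, although the authors tested counts with DESeq2. Genes under the filter were compared by exact permutation tests in Python 3.11.15 with scipy 1.17.1, and by ratios of summed fragments over library denominators with exact 95% intervals, which cover counting error only, since the reads carry no molecular identifiers. The limma p-values set a difference against the spread between cultures, pooled over the groups in the fit and moderated across genes. They do not rest on the 3 cultures of each compared group alone.

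The 8 genes, the 43 further genes and the markers were chosen with earlier results of these data known. Named genes are the 8, *Ddx5*, overlapping genes, in each comparison the 3 largest rises and falls past the threshold among the 43, and the 3 genes most like each tested gene, apart from 2 that are not reported here. Alternatives tried were no filter, 1 FPKM required in every library, a pseudocount of 0.1, quantile normalization, scaling to the sum of fragments, a replicate block, eBayes without trend, voom on fragments, only the 6 libraries of a comparison, an absolute log2 difference of at least 1, and each library left out in turn. Voom with at least 10 fragments in at least 3 libraries, a pseudocount of 0.1 with no filter, and counts over listed genes with 1 FPKM in every library were added after the data were seen. Promoter windows come from RefSeq (GRCm38.p6) and were placed on GRCm39 by an exact match.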

Additional observations from a re-analysis of the deposited data

Results flagged for a closer look

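For 2 of the 4 tested genes the effect of the *Ddx5* knockdown differed between the media by the interaction term of the limma fit. That term was called for 8.21% of all tested genes. For *Tnfaip6* the knockdown effect with cytokines minus that in medium was 1.23 (log2, SE 0.22, adjusted p = 0.00697, 95% interval 0.73 to 1.72). This call was lost with voom at 10 fragments (adjusted p = 0.0566). The mean level went from 1.79 to 6.77 FPKM with the knockdown in medium and from 2.69 to 23.1 FPKM with cytokines. For *Cemip* the same difference was -1.98 (SE 0.21, adjusted p = 3.8e-04, 95% interval -2.45 to -1.52), with 2.18 and 11.5 FPKM in medium and 14.9 and 14.5 FPKM with cytokines.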

How the results depend on the processing

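The calls of *Tnfaip6* for the knockdown in both media and for the cytokines in shRNA-*Ddx5* cells, of *Cemip* for the knockdown in medium, the cytokines in shRNA-NC cells and the interaction, and of *Cd44* for the cytokines in both lines held under every alternative run and without any 1 library, and the rise of *Hyal2* with cytokines in shRNA-NC cells was lost only where an absolute log2 difference of at least 1 was asked for. The fall of *Cd44* with the knockdown and cytokines was lost without 7 of the 12 libraries in turn and under 5 of 12 other settings. *Cemip* in that comparison reversed to 0.18, 0.01 and 0.04 without replicates 2 or 3 of shRNA-NC or replicate 3 of shRNA-*Ddx5* with cytokines, and lay between -0.20 and 0.18 over all 12 omissions. The interaction of *Tnfaip6* lost its call with voom on fragments (1.13, adjusted p = 0.0515), with voom at 10 fragments (1.14, adjusted p = 0.0566) and with a pseudocount of 0.1 and no filter (1.17, adjusted p = 0.0806).

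Of the 8 genes, 4 in place of 2 were called for the knockdown in medium under 3 settings, since *Has2* and *Hyal1* were then tested. These were no filter (23.1% of all its genes called), voom at 10 fragments (44.6%) and a pseudocount of 0.1 with no filter (6237 of 27209 genes). *Has2* passed the filter of voom at 10 fragments only through groups other than shRNA-NC in medium. For the knockdown with cytokines 1 in place of 2 was called with the replicate block, with only the 6 libraries, with an absolute log2 difference of at least 1 and with a pseudocount of 0.1 and no filter, since *Cd44* was lost. For the cytokines in shRNA-NC cells 6 in place of 3 were called with voom at 10 fragments, where 31.7% of all its genes were called. *Has2*, *Has3* and *Tnfaip6* were the ones added. For the interaction 1 in place of 2 was called with voom and with a pseudocount of 0.1 and no filter. With an absolute log2 difference of at least 1, the genes called over the whole table were 774 and 795 for the knockdown in medium and with cytokines, 495 and 637 for the cytokines in shRNA-NC and shRNA-*Ddx5* cells and 245 for the interaction, in place of 5817, 5645, 4181, 3344 and 1016. Leaving out each library in turn gave 4831 to 6201, 4506 to 6054, 3220 to 4574, 2284 to 3839 and 559 to 1123 genes, and 2 to 3, 1 to 2, 3 to 4, 2 to 3 and 2 to 3 of the 8. The interaction count fell to 628 without replicate 2 of shRNA-NC in medium, 600.0 without replicate 3 of shRNA-*Ddx5* in medium, and 610.0, 632 and 559 without replicates 1, 2 and 3 of shRNA-*Ddx5* with cytokines.

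Same-numbered replicates did not deviate together in every pair (r = 0.448, 0.0425 and 0.313 for the lines in medium, and -0.368 to 0.123 in the other comparisons), so that the numbers were not taken to pair the samples. The replicate block called 5452, 5232, 3769, 2902 and 687 genes, of which 5396, 5178, 3709, 2850 and 674 were also called without it, and among the 4 tested genes it changed only the call of *Cd44* for the knockdown with cytokines (adjusted p = 0.0729). The scalings moved the median of all tested genes by less than 0.1 (log2). The depth limits *Has1*, *Has2* and *Hyal1*, with 0 to 9, 2 to 49 and 3 to 28 fragments per library.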
